A study of Mus musculus with 9 samples.

Results

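Blood RNA of mice with polytrauma and hemorrhagic shock (PT + HS) was compared with that of unmanipulated control mice (Ctrl). The comparison used the 6 of 9 arrays that the labels assign to these groups, 3 per group with 1 animal per array. All 18194 genes with a value were examined. Of these, 134 differed at an adjusted p under 0.05 from limma (0.737% of all genes), 95 of them higher (0.522%) and 39 lower (0.214%) in PT + HS. Genes of neutrophils and of innate receptors were among those that rose, headed by the collagenase Mmp8 at 27.0 times the Ctrl level. Genes of B cells and of MHC class II antigen presentation were among those that fell, headed by the IgE receptor Fcer2a, which was 4.95 times lower than in Ctrl.

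The study asked how an added hemorrhage alters the leukocyte transcriptome early after multiple injury. All mice were C57BL/6, 8 to 9 weeks old and about 25 g in weight. PT + HS mice were injured in the chest (blunt, on both sides), the brain and the leg, where the femur was broken without an open wound and soft tissue was hurt. Buprenorphine was given, and catheters were placed in the femoral artery and the jugular vein. From 1 h after the trauma blood was withdrawn until the mean arterial pressure reached 30 ± 5 mmHg, and this pressure was held for 60 min. Fluid at 4 times the volume withdrawn was infused over the next 30 min, with norepinephrine where the pressure required it. Sevoflurane anesthesia lasted until blood was taken 4 h after the trauma. Ctrl mice had no injury, no catheter and no blood loss, and were bled directly after anesthesia was induced. Injury, hemorrhage, fluid, drugs, catheters, anesthesia and the hours that passed therefore cannot be told apart in this comparison. PT mice, with the same injuries and no hemorrhage, form the remaining group and are set beside the others only where stated.

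Blood was collected in tubes that stabilize RNA, and platelets and immature red cells contributed to the measured RNA along with leukocytes. Neutrophils are the first leukocytes that a tissue injury draws out of the bone marrow. They carry proteases and antimicrobial proteins in granules and sense damage and microbes through toll-like receptors, C-type lectins and chemoattractant receptors. B cells recirculate between blood and lymphoid organs, guided by chemokine receptors such as CXCR5, and present antigen on MHC class II. Glucocorticoids released under stress act on both cell types.

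All levels below are log2 expression values, and differences are PT + HS minus Ctrl on the log2 scale with the standard error from limma. The medians of the 6 arrays lay between 3.65 and 3.68, and their correlations with each other between 0.961 and 0.977, without a separate array. The median SD of a gene was 0.222 in Ctrl and 0.208 in PT + HS. Over all genes the median difference was -0.01, with quartiles of -0.17 and 0.14. Defining genes of blood were strongly measured in both groups. Alas2, the heme synthesis enzyme of red cell precursors, had values from 14.23 to 14.38, and Pf4, a platelet chemokine, from 11.51 to 11.83. The number of arrays limits the precision.

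The second measure of a call applied the thresholds of the study, at least a 1.5-fold change with p under 0.05 before adjustment, to the p from limma. By this measure 898 genes passed (4.94% of all genes), 488 higher (2.68%) and 410 lower (2.25%). The unmoderated test of the study's methods gave 542 on the same values. Higher genes of the 134 changed by 1.88 to 27.0 times with a median of 3.15, and 30 of the 95 changed at least 4-fold. Lower genes changed by 1.96 to 4.95 times with a median of 2.998, and 7 of the 39 changed at least 4-fold. In all 134 genes the values of the groups did not overlap, which a call with 3 mice per group favors. The same held for 2410 genes (13.2%) of all tested, 1190 higher and 1220 lower. Ctrl replicate 1 was the control nearest to PT + HS in 60 of the 95 higher and in 34 of the 39 lower genes. PT + HS replicate 2 was the array nearest to Ctrl in 73 of the higher and 26 of the lower genes. The number of calls depended on single arrays. It was 4 without Ctrl replicate 2, 47 without Ctrl replicate 3, 3 without PT + HS replicate 1 and 14 without PT + HS replicate 3, and 159 and 156 without Ctrl replicate 1 and PT + HS replicate 2. Mmp8, Arg2 and Fkbp5 were called in each of these 6 fits. With the PT arrays added to estimate the spread, 1 gene was called.

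**Figure D1:**
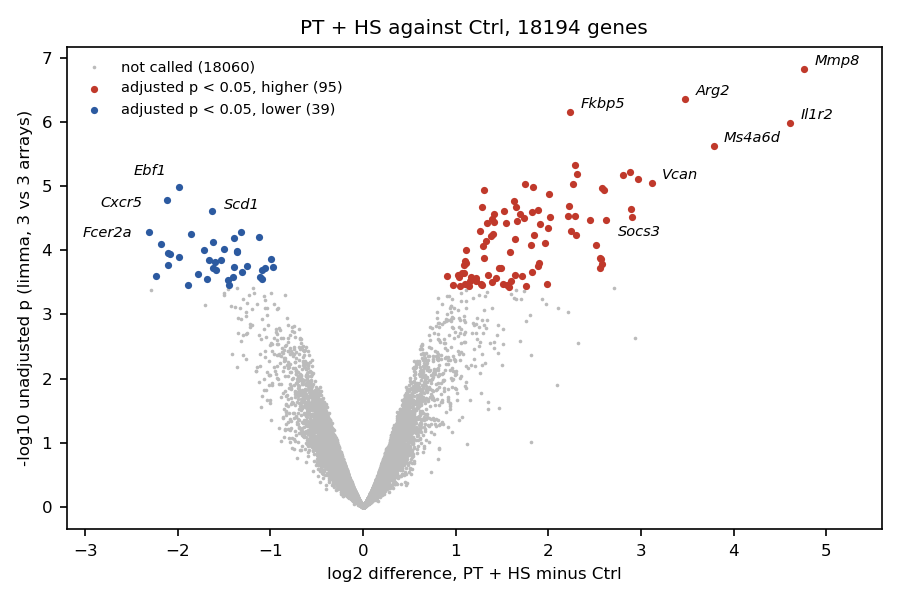
Each point is 1 of 18194 genes, with its log2 difference between PT + HS and Ctrl on the x axis and the -log10 of its unadjusted p from limma on the y axis. The 95 higher and 39 lower genes at an adjusted p under 0.05 are coloured, and the higher genes reach a difference of 4.75 (Mmp8) where the lower ones reach -2.31 (Fcer2a).

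Neutrophil genes were among those that rose most. Mmp8, the neutrophil collagenase that is stored in granules, had 6.06, 5.00 and 5.40 in Ctrl and 10.58, 9.51 and 10.63 in PT + HS. The groups were separated by more than 3 log2 units, with PT + HS replicate 2 lowest of the injured mice. The difference was 4.75 (standard error 0.34, adjusted p = 0.00273 from limma). Il1r2, a decoy receptor that binds interleukin-1 without signaling, had 5.61, 4.92 and 3.73 in Ctrl and 9.65, 8.90 and 9.55 in PT + HS. Its values did not overlap although the Ctrl mice spread widely, and the difference was 4.61 (standard error 0.42, adjusted p = 0.00473). Cxcr2, the receptor through which neutrophils follow CXC chemokines, had 7.87, 7.14 and 7.28 in Ctrl and 9.53, 8.88 and 9.86 in PT + HS. Each PT + HS mouse was thus more than 1 log2 unit above the highest Ctrl mouse (adjusted p = 0.018).

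Of 21 measured neutrophil markers, 6 rose at an adjusted p under 0.05 and none fell, and 17 passed the study's thresholds upward. All 21 had a positive difference, with a median of 1.31 against -0.01 over all genes. The mean of the list was 6.84, 6.37 and 6.24 in Ctrl and 8.52, 7.44 and 8.42 in PT + HS, so that the groups did not overlap and PT + HS replicate 2 was again lowest. Besides Il1r2 and Cxcr2 these were Hdc, the enzyme of histamine synthesis, with a difference of 2.60, the C-type lectins Clec4e (2.90) and Clec4d (2.01), and Fpr2 (2.56), a receptor for formylated peptides. Lrg1, Csf3r, S100a8 and S100a9 did not pass at an adjusted p under 0.05, with differences of 2.71 (adjusted p = 0.0516), 1.29 (0.105), 1.22 (0.151) and 1.51 (0.124). In whole blood, more cells of a type and more RNA per cell cannot be told apart, and neither can fewer cells and less RNA.

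Granule proteins were uneven. Of 17 measured, Mmp8 and Hp, the hemoglobin scavenger haptoglobin, rose at an adjusted p under 0.05, the latter by 1.90 (standard error 0.26). By the study's thresholds 6 passed upward and 1 downward, Serpinb1a (-1.10). Lcn2, the siderophore-binding protein of specific granules, had 9.09, 6.47 and 6.91 in Ctrl and 11.48, 9.13 and 10.64 in PT + HS. Its lowest injured value was barely above the highest Ctrl value, and the difference of 2.93 did not pass (adjusted p = 0.15). The primary granule genes Mpo, Elane, Prtn3 and Ctsg had differences of 0.27, 0.43, 0.47 and 0.40 and Camp one of -0.10, none of which passed either rule. The median of the list was 0.43. Among 16 factors of granulopoiesis, Csf2rb, the common chain of the receptors for GM-CSF, interleukin-3 and interleukin-5, rose by 2.21 (standard error 0.29) and Cebpb, a transcription factor of emergency granulopoiesis, by 1.17 (standard error 0.21). A further 6 of these passed the study's thresholds, among them Cebpd, Csf3r and Id2.

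**Figure D2:**
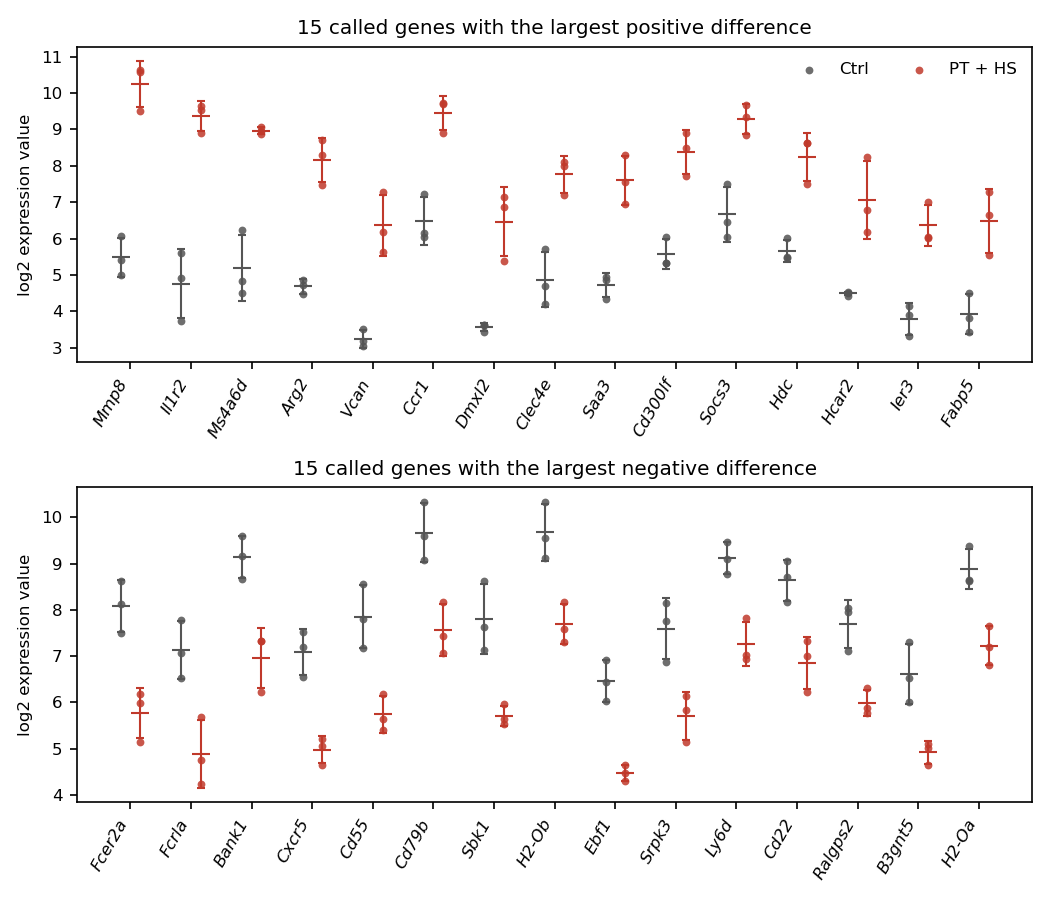
Log2 expression values of each array for the 15 called genes with the largest positive and the 15 with the largest negative difference, with Ctrl in grey and PT + HS in red. Points are single animals, the horizontal mark is the mean and the bar is the SD (n = 3). The genes were picked for the size of their difference, and the largest is that of Mmp8, from a Ctrl mean of 5.49 to a PT + HS mean of 10.24.

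Arg2, the mitochondrial arginase, had 4.86, 4.72 and 4.47 in Ctrl and 8.30, 7.49 and 8.70 in PT + HS. The Ctrl mice lay close together and all injured mice were far above them, with a difference of 3.48 (standard error 0.28, adjusted p = 0.00408). The 2 probe sets of Arg2 had differences of 0.81 and 3.48. Of the 13 measured genes of arginine metabolism, Arg2 was the only one to pass either rule. Arg1, the cytosolic arginase, and Nos2, the inducible nitric oxide synthase, had differences of -0.28 and -0.10. Saa3, an acute phase serum amyloid, had 4.85, 4.34 and 4.95 in Ctrl and 7.57, 6.94 and 8.28 in PT + HS, a difference of 2.88 without overlap. Acod1, which makes itaconate in activated myeloid cells, rose by 2.51 (standard error 0.38). Hcar2, a receptor for ketone bodies and niacin, rose by 2.57 with very even Ctrl values (4.43 to 4.53) and a wide range in PT + HS (6.17 to 8.24). Fabp5, a carrier of fatty acids, rose by 2.57 (standard error 0.42).

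Receptors of innate immunity formed the next group. Of 22 measured C-type lectins, TREM and CD300 receptors, Cd300lf, an inhibitory receptor of myeloid cells, Clec4e, Clec4d and Clec4n rose and none fell, 12 passed the study's thresholds upward, and the median was 0.79. Cd300lf had 6.05, 5.33 and 5.33 in Ctrl and 8.48, 7.71 and 8.90 in PT + HS, without overlap, a difference of 2.80 (standard error 0.31). Of 25 toll-like receptor genes, Cd14, the coreceptor for lipopolysaccharide, rose by 2.56 (standard error 0.41), Tlr2, which detects bacterial lipopeptides, by 1.59 (0.25), and Tlr13, a sensor of bacterial ribosomal RNA, by 1.64 (0.24). Cd14 had 5.44, 4.94 and 4.12 in Ctrl and 8.03, 6.53 and 7.62 in PT + HS, and PT + HS replicate 2 was the nearest to Ctrl. Tlr4, Tlr6 and the adaptors Myd88 and Tirap passed the study's thresholds only (0.91, 0.98, 1.11 and 0.82). Tlr1 and Cd180 passed them downward (-1.03 and -0.68). NF-kB genes had a median of 0.00, and none of 18 was called at an adjusted p under 0.05. By the study's thresholds 2 of them passed upward, Nfkbia (0.64) and Nfkbiz (0.64), and 1 downward, Nfkbie (-0.63).

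Within the interleukin-1 and interleukin-18 system, the genes that rose included receptors and an antagonist. Beside the decoy Il1r2, these were Il1rn, the antagonist that blocks the interleukin-1 receptor, by 1.22 (standard error 0.22), Il1f9, the cytokine interleukin-36 gamma, by 1.85 (0.27), and Il18rap, a chain of the interleukin-18 receptor, by 1.09. Il1rn had 5.78, 5.92 and 5.82 in Ctrl and 7.39, 6.60 and 7.17 in PT + HS, without overlap. The agonist Il1b, by contrast, had 9.45, 8.52 and 8.26 in Ctrl and 9.47, 9.04 and 9.81 in PT + HS. Its groups overlapped through Ctrl replicate 1, and the difference of 0.70 did not pass. Il1a had a difference of -0.02. Of 13 members 4 rose, 6 passed the study's thresholds and the median was 0.64. Among 12 inflammasome genes Casp4, the caspase that senses cytosolic lipopolysaccharide, rose by 1.84 (standard error 0.22), whereas Nlrp3, Casp1 and Gsdmd had differences of 0.31, -0.05 and 0.23 and did not pass.

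Socs3, the feedback inhibitor of STAT3 signaling, rose by 2.62 (standard error 0.35), with 7.49, 6.04 and 6.45 in Ctrl and 9.35, 8.84 and 9.66 in PT + HS. The groups did not overlap. Of the 29 measured genes of JAK-STAT and interleukin-6 family signaling, it alone passed at an adjusted p under 0.05. Il6st, the shared receptor chain gp130, Lifr and Stat3 passed the study's thresholds with 1.02, 0.92 and 0.88. The 4 probe sets of Il6st ranged from -0.36 to 1.02. Il6 itself was weakly measured in both groups, with means of 2.58 in Ctrl and 2.55 in PT + HS. Ccr1, a receptor for inflammatory CC chemokines, had 7.23, 6.03 and 6.16 in Ctrl and 9.73, 8.90 and 9.70 in PT + HS, which is a rise of 2.97 (standard error 0.34). Ccr2, the receptor that brings monocytes out of the marrow, differed by 1.65 (adjusted p = 0.0641). None of the 21 chemokine ligands was called at an adjusted p under 0.05, with a median of 0.06. By the study's thresholds 2 passed upward, Ccl6 (0.81) and Ccl9 (0.68), and 0 downward.

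**Figure D3:**
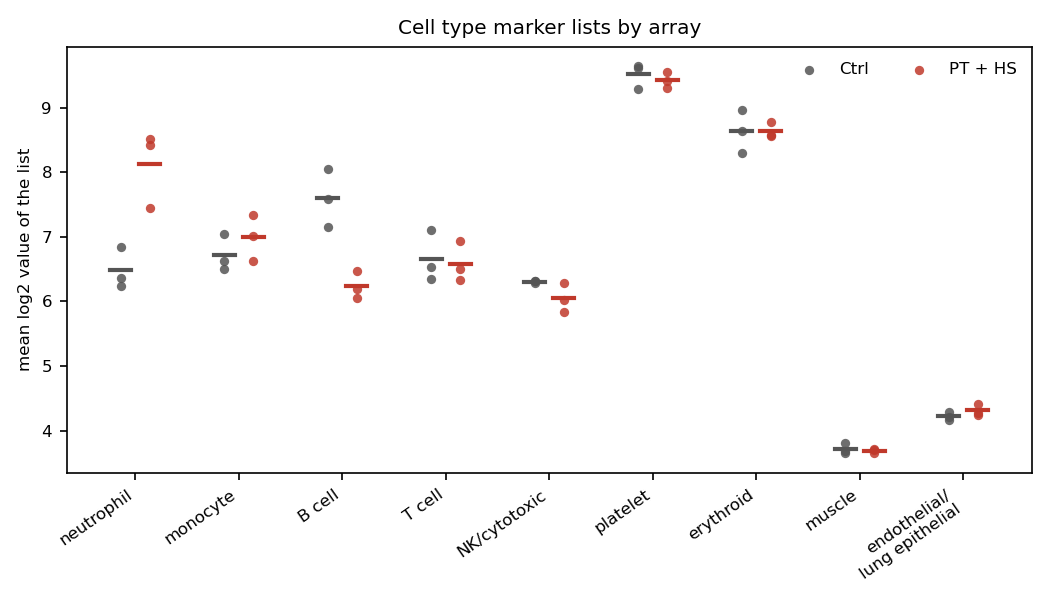
Mean log2 value of each cell type marker list in each array, with Ctrl in grey, PT + HS in red and a line at the group mean. The neutrophil list lies higher and the B-cell list lower in all PT + HS arrays, and the T-cell, platelet, erythroid and muscle lists overlap between the groups.

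B-cell genes fell. Fcer2a, the low-affinity IgE receptor CD23 of mature B cells, had 7.50, 8.12 and 8.63 in Ctrl and 5.15, 6.18 and 5.99 in PT + HS, a difference of -2.31 (standard error 0.33, adjusted p = 0.0196). Cxcr5, which guides B cells into follicles, had 6.54, 7.20 and 7.53 in Ctrl and 4.65, 5.06 and 5.22 in PT + HS, a difference of -2.11 (standard error 0.26, adjusted p = 0.0149). In both genes Ctrl replicate 1 was the lowest of the Ctrl mice and still more than 1 log2 unit above every injured mouse. Ebf1, a transcription factor that specifies B cells, had 6.03, 6.44 and 6.92 in Ctrl and 4.48, 4.30 and 4.66 in PT + HS, a difference of -1.99 (standard error 0.23, adjusted p = 0.0117). The injured mice lay within a narrow range for this gene, and its 5 probe sets had differences from -1.99 to 0.04.

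Of 27 measured B-cell genes, 11 fell and none rose, 23 passed the study's thresholds downward and all 27 had a negative difference, with a median of -1.27. The remaining 8 that fell were Fcrla (-2.23), Bank1 (-2.18), Cd55 (-2.11), Cd79b (-2.10), Cd22 (-1.78), Ralgps2 (-1.72) and Spib (-1.53), together with Ms4a1, which was 2.83 times lower. Cd79b is the signaling chain of the B-cell receptor, Cd22 an inhibitor of that receptor, Bank1 a scaffold behind it and Ms4a1 the surface protein CD20. Cd55, which protects cells from complement, is not restricted to B cells. The partner chain Cd79a differed by -1.17 (adjusted p = 0.0576) and Tnfrsf13c, the receptor for the survival factor BAFF, by -1.71 (adjusted p = 0.0735). Pax5 was weakly measured, with means of 3.71 and 3.33, and its difference of -0.37 did not pass. The mean of the list was 7.15, 7.59 and 8.05 in Ctrl and 6.06, 6.47 and 6.20 in PT + HS. No gene was called lower in the fits without Ctrl replicate 2, PT + HS replicate 1 or PT + HS replicate 3, nor with the PT arrays in the fit, and 5 were called lower without Ctrl replicate 3.

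MHC class II genes lay with the B-cell genes. H2-Ob, a chain of the molecule DO that restrains peptide loading in B cells, had 9.13, 9.56 and 10.34 in Ctrl and 7.31, 8.17 and 7.59 in PT + HS, a fall of 1.99. Its partner H2-Oa differed by -1.66 and the peptide loading chain H2-DMb2 by -1.58. The classical chains H2-Ab1, H2-Aa and H2-Eb1 and the invariant chain Cd74 passed the study's thresholds with -1.07, -0.86, -0.66 and -1.19 (adjusted p for Cd74 = 0.0514). Ciita, the master regulator of the class, had a difference of -0.11. In all, 3 of 12 members fell at an adjusted p under 0.05 and 8 passed the study's thresholds downward, with a median of -0.95. The 15 genes of MHC class I and its peptide loading had a median of -0.18, and none passed either rule.

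Other called genes that were lower included costimulatory ones. Cd40, the receptor by which B cells receive T-cell help, had 6.07, 6.16 and 6.40 in Ctrl and 5.04, 5.18 and 5.05 in PT + HS, a difference of -1.12 (standard error 0.16). Cd83, a surface protein of activated and antigen-presenting cells, differed by -1.39, and Cd69, an early activation marker that retains lymphocytes in tissue, by -1.46 (standard error 0.26). Scd1, the desaturase that makes oleic acid, had 8.47, 8.94 and 9.03 in Ctrl and 6.86, 7.31 and 7.37 in PT + HS, a fall of 1.64 without overlap. Tcf4 and Mef2c, transcription factors used in lymphoid and dendritic cells among others, fell too. Tcf4 was the only gene of 13 dendritic cell markers to pass at an adjusted p under 0.05 (-0.97), and its 6 probe sets ranged from -1.18 to 0.11.

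T-cell genes gave few calls. None of 25 passed at an adjusted p under 0.05 and the median was 0.00. Cd3e, a chain of the T-cell receptor complex, had 7.70, 8.00 and 8.93 in Ctrl and 7.49, 8.51 and 8.09 in PT + HS, and the groups overlapped. At the study's thresholds, single genes of the list differed in opposite directions. Il7r, the receptor for the survival cytokine interleukin-7, had 7.59, 8.05 and 8.95 in Ctrl and 9.37, 10.06 and 9.54 in PT + HS, a difference of 1.46 (adjusted p = 0.115). Ccr7, which leads naive T cells into lymph nodes, differed by -1.10 and the adhesion molecule Cd2 by -1.32, both also without overlap. Cd28 passed these thresholds with -0.83.

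Other cells of the blood showed few calls. Of 15 monocyte markers none passed at an adjusted p under 0.05, while Ccr2, Fcgr1, Fcgr4, Cd68 and Clec4a3 passed the study's thresholds upward and Cx3cr1, a receptor of patrolling monocytes, downward (-0.69). Of 19 NK-cell and cytotoxic genes 1 rose, Cd244a (0.97, standard error 0.18), a receptor that myeloid cells also carry, and 5 passed the study's thresholds downward, among them Ctsw (-1.06), Tbx21 (-0.88) and Gzma (-0.81). Platelet and erythroid markers had medians of -0.12 and -0.02, and none of the 16 and 21 was called at an adjusted p under 0.05. Markers of cardiac and skeletal muscle and of endothelium and lung epithelium, which injured tissue could release, had list means of 3.65 to 3.81 and of 4.16 to 4.42 on the 6 arrays, and none was called at an adjusted p under 0.05.

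Fc receptors moved in opposite directions within the family. Fcgr3, an activating receptor for IgG on myeloid cells, had 7.90, 7.66 and 7.34 in Ctrl and 9.40, 8.98 and 9.42 in PT + HS, and rose by 1.63 (standard error 0.20). Fcgr2b, the inhibitory receptor for IgG of B cells and myeloid cells, rose by 1.28 from the probe set used here, and its 5 probe sets ranged from -0.03 to 2.32. Fcer2a and Fcrla, both of B cells, fell as described. Of the 12 members 4 thus passed at an adjusted p under 0.05, and the median was -0.02. In the TNF family Tnfrsf1a, the main receptor for TNF, rose by 1.03 and Ltbr, the lymphotoxin receptor, by 1.02, where Cd40 fell. Tnf itself had a difference of -0.05.

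Target genes of glucocorticoids included 4 that rose and none that fell. Fkbp5, a cochaperone of the glucocorticoid receptor, had 5.75, 5.73 and 6.28 in Ctrl and 8.05, 8.15 and 8.26 in PT + HS. All injured mice were within 0.3 log2 units of each other and far above Ctrl (difference 2.23, standard error 0.19, adjusted p = 0.00424). Klf9, a transcription factor, ranged from 4.14 to 4.88 in Ctrl and from 6.50 to 7.06 in PT + HS, a rise of 2.29. Mt1, a metal-binding metallothionein, rose by 1.89, and Il1r2 belongs to this list too. In contrast to most of the neutrophil genes above, PT + HS replicate 2 was not the lowest for Klf9 and Fkbp5. Of the 24 members 10 passed the study's thresholds upward, with a median of 0.31. The mean of the list was 6.18, 6.24 and 6.24 in Ctrl and 6.88, 6.96 and 6.98 in PT + HS. Tsc22d3, the glucocorticoid-induced leucine zipper, had a difference of -0.20 and Sgk1 of -0.24, and neither passed. Probe sets of the same gene differed for Fkbp5 (-0.01 to 2.23 over 3), Klf9 (-0.14 to 2.29 over 7) and Mt1 (0.28 to 1.89 over 2).

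**Figure D4:**
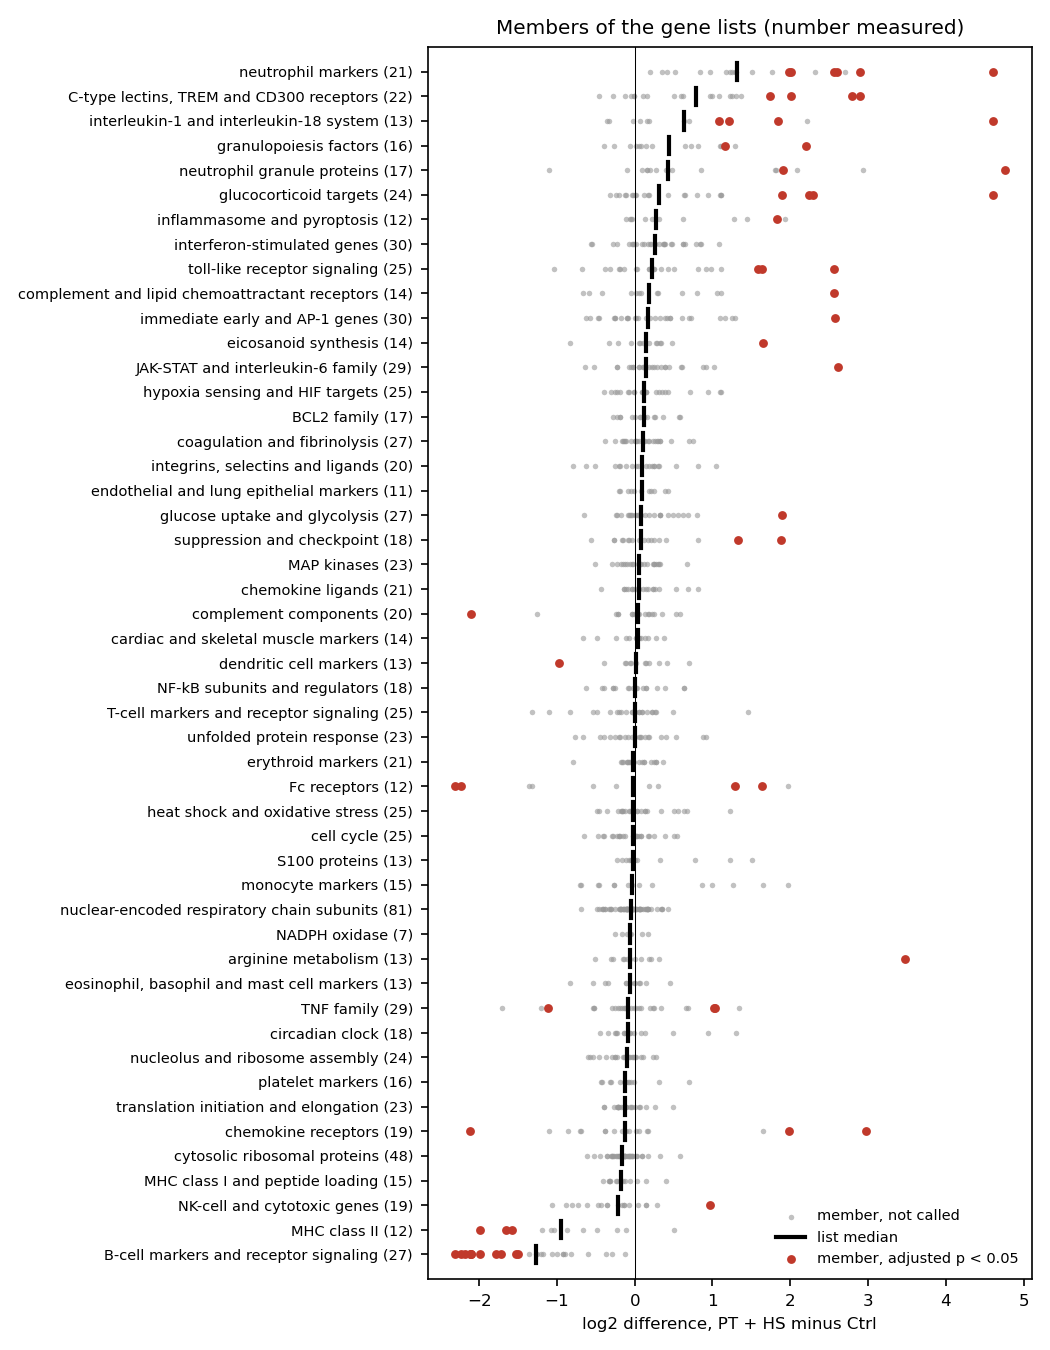
Log2 difference between PT + HS and Ctrl of the measured members of 49 gene lists, ordered by their median (black line), with the number of measured members in parentheses. Members at an adjusted p under 0.05 are red. Neutrophil markers have the highest median (1.31) and B-cell genes the lowest (-1.27).

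Few genes of glucose use and of the hypoxia response were called. Slc2a1, the glucose transporter GLUT1, had 5.95, 5.50 and 6.11 in Ctrl and 7.11, 7.67 and 8.45 in PT + HS, and rose by 1.89 (standard error 0.32, adjusted p = 0.0368). Its 3 probe sets had differences from 0.805 to 1.891. Slc2a1 was the only gene of 27 for glucose uptake and glycolysis to pass at an adjusted p under 0.05, with a list median of 0.08. By the study's thresholds 4 were higher, with Pfkfb3 (0.80), Pgam1 (0.62) and Pfkfb4 (0.69) as the others, and Aldoc (-0.65) was lower. The 2 probe sets of Pfkfb3 had differences of -0.025 and 0.796. Among 25 genes of oxygen sensing and of HIF targets none passed at an adjusted p under 0.05 and 4 passed the study's thresholds, including Hif1a itself (1.10), Bnip3 (0.95) and Ddit4 (1.11). The median of these 25 genes was 0.12, and the 4 probe sets of Hif1a ranged from -0.07 to 1.39. Of 30 interferon-stimulated genes none was called at an adjusted p under 0.05 and 6 passed the study's thresholds upward, with a median of 0.26. Outside that list, Ifi204, Ifi207, Slfn1 and Plscr1, which interferon also induces, rose by 1.31, 1.38, 1.43 and 1.39. These genes were picked after their values were seen, and the 2 probe sets of Slfn1 had differences of 0.03 and 1.43. Ier3, an immediate early gene, rose by 2.57, and Junb (1.29), Fosl2 (1.25) and Zfp36 (1.17) passed the study's thresholds. The 2 probe sets of Fosl2 had differences of -0.28 and 1.25. The 81 nuclear-encoded subunits of the respiratory chain and the 48 cytosolic ribosomal proteins had medians of -0.05 and -0.16, and none was called at an adjusted p under 0.05.

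Promoters of the called genes were read because the members moved in groups. They are RefSeq sequences of the GRCm38.p6 assembly, from 250 bases before to 50 after a transcription start. Of the genes tested, 14453 had a promoter, with 78 of the higher and 26 of the lower genes. The PU.1-type letters GAGGAAGT, searched on both strands as all motifs here, were found in 7 of the 78 (8.97%), in 0 of the 26 and in 3.47% of all promoters. The AP-1 letters TGACTCA occurred in 6.41%, 3.85% and 5.33%, and the HIF letters GACGTG in 10.3%, 3.85% and 9.33%. The CEBP letters TTGCGCAA and the CRE letters TGACGTCA occurred in none of the called genes and in 0.27% and 2.92% of all promoters. Matches to different motifs may share bases at their ends. These shares describe letters only and were not tested. Shown are Mmp8 (chr9:7558179-7558478, plus strand, PU.1 match on the opposite strand), Il1r2 (chr1:40085843-40086142, plus strand, both HIF matches on the opposite strand), Slc2a1 (chr4:119108495-119108794, plus strand, HIF match) and Fcer2a (chr8:3690812-3691111, minus strand, AP-1 match, 1 of 3 promoters of the gene), with the matches in capitals. They were chosen because these genes head their groups and hold a match.
Mmp8: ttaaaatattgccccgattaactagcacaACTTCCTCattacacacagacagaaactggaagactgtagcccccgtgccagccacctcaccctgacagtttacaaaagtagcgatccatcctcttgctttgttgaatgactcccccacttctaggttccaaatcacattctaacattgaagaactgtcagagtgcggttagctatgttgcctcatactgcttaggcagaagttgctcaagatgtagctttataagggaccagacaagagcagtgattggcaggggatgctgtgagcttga
Il1r2: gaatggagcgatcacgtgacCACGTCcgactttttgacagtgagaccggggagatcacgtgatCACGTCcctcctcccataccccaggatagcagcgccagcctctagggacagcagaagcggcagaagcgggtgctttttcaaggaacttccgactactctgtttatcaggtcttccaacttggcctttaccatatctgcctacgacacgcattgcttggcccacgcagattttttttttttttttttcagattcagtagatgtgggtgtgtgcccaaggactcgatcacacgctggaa
Slc2a1: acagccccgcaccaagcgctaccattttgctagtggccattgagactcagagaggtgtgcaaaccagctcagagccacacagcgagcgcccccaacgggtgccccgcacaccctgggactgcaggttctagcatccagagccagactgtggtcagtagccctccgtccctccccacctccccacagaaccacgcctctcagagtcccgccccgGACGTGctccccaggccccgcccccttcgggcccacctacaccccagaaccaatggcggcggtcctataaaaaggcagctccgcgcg
Fcer2a: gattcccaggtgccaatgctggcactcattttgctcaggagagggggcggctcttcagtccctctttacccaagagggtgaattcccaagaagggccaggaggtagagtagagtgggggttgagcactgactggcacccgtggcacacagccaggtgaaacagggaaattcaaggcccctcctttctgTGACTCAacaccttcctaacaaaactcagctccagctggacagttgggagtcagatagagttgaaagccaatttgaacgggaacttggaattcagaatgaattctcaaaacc

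PT mice had the same injuries without hemorrhage, and their comparison with Ctrl shares the Ctrl mice. Mmp8 had 10.52, 8.74 and 9.75 in PT, so that PT minus Ctrl was 4.18 where PT + HS minus Ctrl was 4.75. Arg2 had 8.63, 6.41 and 8.26 in PT. Fkbp5 had 8.50, 6.72 and 7.57 in PT, and PT minus Ctrl was 1.67 beside 2.23 for PT + HS. In each of these genes the PT values spread more widely than those of PT + HS and overlapped with them. Fcer2a had 5.30, 5.25 and 7.16 and Cxcr5 4.84, 4.06 and 6.39 in PT, with the highest in PT replicate 3 for both. PT replicate 2 correlated with each of the others at 0.912 to 0.949, below the 0.961 to 0.977 among the 6 Ctrl and PT + HS arrays. In the direct test of PT + HS against PT by limma, 0 genes were called after adjustment, and no adjusted p was below 1. An unadjusted p under 0.05 was found for 522 of the 18194 genes, a share below the 0.05 to be met if no gene differed. Of the 134 called genes, 2 had such a p in the direction of their difference from Ctrl. The difference between PT + HS and PT was 0.57 (standard error 0.47) for Mmp8, 0.69 (0.38) for Klf9 and 0.71 (0.34) for Tlr13. For Cd14 it was 0.81 (0.52), for Fcer2a -0.13 (0.52), for Clec4e 0.001 (0.59) and for Ms4a1 0.37 (0.56). The PT + HS mean was above PT in 87 of the 95 higher called genes and below it in 24 of the 39 lower ones. These genes were called on the PT + HS arrays, which favors this direction. The PT mean lay beyond all Ctrl values in 94 of the 95 and in 39 of the 39. Every single PT value did so in only 67 of the 95 and 18 of the 39. The genes were called against these same Ctrl mice, which favors such counts, and the share over all genes was not taken. A missed threshold does not show that PT + HS and PT were alike.

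**Figure D5:**
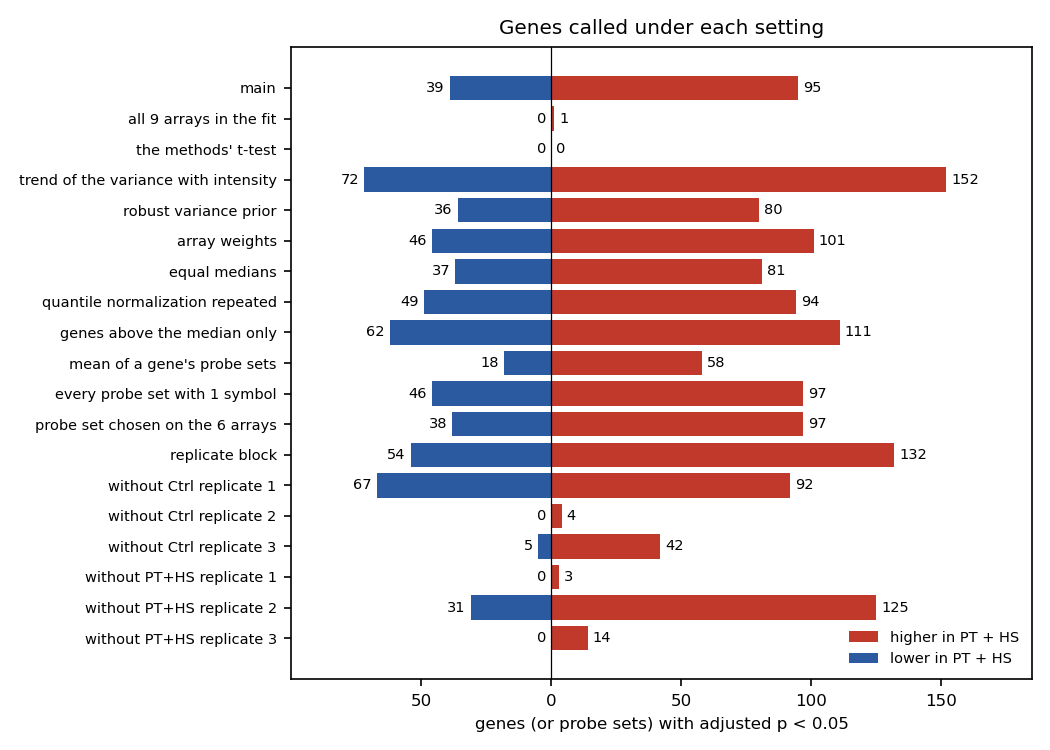
Number of genes with an adjusted p under 0.05 that were higher (right) or lower (left) in PT + HS under the main setting and each alternative. The main setting gives 95 and 39, and the counts range from 0 in all with the unmoderated test of the study's methods to 152 and 72 with a trend of the variance.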

How the data were processed

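RNA from the blood of 3 PT + HS and 3 Ctrl mice was compared on 1 array for each animal, with the 3 PT arrays set beside them. The authors deposited log2 values from robust multiarray average, which corrects the background, normalizes the arrays by quantiles and summarizes the probes of a set. No software version is given in the sources used here. The paper names the Mouse Gene 1.0 ST array, whereas the deposited probe set names belong to an array with probes near the transcript end. Quantile normalization gives every array the same distribution, so that a shift of all transcripts would not be seen. No scan date or batch is given in the sources used here.

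Of 45101 probe sets, 34958 with exactly 1 symbol were used, 34754 of them matched to a current symbol, changed or not, through the Entrez ID. One probe set per gene was taken, that with the highest mean over the 9 arrays, which left 18194 genes, 9012 of them with several probe sets. No filter on low values was applied. limma 3.58.1 in R 4.3.3 was fitted to the 6 arrays, with two-sided moderated tests adjusted by Benjamini-Hochberg. PT + HS against PT came from a fit to the 9 arrays. The groups hold separate animals, and no source used here pairs them by replicate number.

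Named are up to 15 called genes per direction with the largest difference, the 4 members of each list with the smallest p and members needed to describe a list. Genes and lists were chosen with earlier results of these data known. Called genes of no list that lie outside the 15, such as Acod1, Scd1, Cd69, Cd83 and Ifi204, were picked after their values were seen. Some genes of the lists are not analysed here. The alternatives were all 9 arrays in the fit, an unmoderated t-test, other variance priors, array weights, other normalization and other treatment of probe sets. A filter on low values, a 2-fold threshold, a replicate block and leaving out each array were further ones. Simulated data with known changes were used to test the fit. Their noise was drawn independently for each value, so they cannot show how the calls depend on single arrays.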

Additional observations from a re-analysis of the deposited data

How the results depend on the processing

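At an adjusted p under 0.05 the number of called genes was 134. It was 1 with all 9 arrays in the fit, 0 with an unmoderated t-test (1339 genes at an unadjusted p under 0.05) and 224 with a trend of the variance. It was 76 when probe sets of a gene were averaged and 3 to 159 when 1 array was left out. By the study's thresholds 898 genes passed, 596 with all 9 arrays, 542 with the t-test, 582 with the mean of probe sets, 1433 when every probe set was counted, 294 at 2-fold and 875 to 1259 when 1 array was left out. Without Ctrl replicate 1, 45.0% of these were higher in PT + HS, against 54.3%. The other settings moved both counts by less than 1.5 times. With a replicate block 186 and 957 genes passed, with 127 of the 134 among the former, and deviations of arrays with the same number correlated at only 0.13, -0.03 and -0.01. No called gene passed between PT + HS and PT under any setting run. The cause of these changes was not tested. A fit with an array left out also has fewer degrees of freedom, and the part this played was not tested either.

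Small differences turned sign for genes that were not called: Myl3 (0.066), Tap1 (0.05), Dbp (0.092) and Tef (0.026) with averaged probe sets, and Nox4 and Ncf1 without PT + HS replicate 2. When 1 array was left out, Nox4 ranged from -0.001 to 0.373 and Ncf1 from -0.345 to 0.107. Of the 77 called genes with several probe sets, all probe sets had the same sign in 60. A weak signal limits what can be seen, and 20 of the 95 higher genes had a Ctrl mean below the median level of 4.28 over all genes.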

Other observations

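Outside the lists stood 60 of the 95 higher and 23 of the 39 lower genes. Genes of the MS4A family, membrane proteins with 4 spans, moved apart. Ms4a6d had 6.22, 4.83 and 4.50 in Ctrl and 9.06, 8.87 and 8.97 in PT + HS, with a difference of 3.78 that its 3 probe sets did not share (-0.13 to 3.78). Ms4a8a and Ms4a6c rose by 2.25 and 1.26, and the B-cell member Ms4a1 fell. Vcan, a proteoglycan that monocytes and neutrophils express, rose by 3.12 from Ctrl values of 3.04, 3.19 and 3.51, below the median level of 4.28 over all genes, and its 8 probe sets ranged from -0.15 to 3.12.

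Some surface proteins that myeloid cells carry were among the genes that rose. Pirb, the paired Ig-like receptor B, had 7.09, 6.44 and 6.62 in Ctrl and 8.12, 8.09 and 7.93 in PT + HS, and the sialic acid receptor Cd33 rose by 1.56. Entpd1, the ectonucleotidase CD39, had 4.59, 4.41 and 4.41 in Ctrl and 6.20, 5.95 and 6.93 in PT + HS, a rise of 1.89. Pirb and Entpd1 were the only 2 called of 18 measured genes of suppression and checkpoints. That list had a median of 0.08, with 10 positive and 8 negative differences. Pla2g7, which degrades platelet-activating factor, rose by 1.65. Trpm2, a calcium channel opened by oxidative stress, Xdh, xanthine dehydrogenase, and Gsr, glutathione reductase, rose as well. The 2 probe sets of Trpm2 had differences of -0.22 and 1.82. Among the lower genes were Parp1, a sensor of DNA breaks (-1.31), and the glycosyltransferase B3gnt5 (-1.69).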
